A study of Homo sapiens with 33 samples.

Results

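The 9 genes described here encode subunits of Polycomb repressive complex 1 (PRC1): RING1, RNF2, BMI1, PCGF1, PCGF2, CBX2, CBX7, CBX8 and PHC1. They were chosen by gene symbol, and each matched 1 of the 58293 entries of the FPKM table of the RIP-seq input RNA. FPKM stands for sequenced fragments per transcript length and library size, so it is a level per length and may be compared between genes. The study profiled RNA bound by EZH2, the catalytic subunit of PRC2, in K562, a human leukemia cell line with erythroid features. Of its 33 samples, 5 were used here, each 1 library of wild type K562 cells grown in RPMI with fetal bovine serum and with no knockout or knockdown. They were the input RNA, which carries the FPKM values, and the cytoplasmic, nuclear, nuclear polyA+ and nuclear polyA- RNA, for which read counts were deposited on the same 900 EZH2 RIP-seq fragments. In the methods, RIP was made on sonicated nuclei of fixed cells, and whether the input RNA was likewise nuclear was not stated. The 4 fractionated libraries had 7929 to 106051 reads on the fragments in total, and the sequencing depth behind the FPKM values was not given. With 1 library per kind of RNA there is no replicate error. Every interval below is a 95% interval that covers only the estimate within its library, and no p-value was computed.

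PRC1 is an E3 ubiquitin ligase that places ubiquitin on a lysine of histone H2A (the mark H2AK119ub). A RING protein, RING1 or RNF2 (RING1B), supplies the catalytic site and pairs with 1 of the PCGF proteins, which sets the kind of complex. Canonical PRC1, built on BMI1 (PCGF4) or PCGF2 (MEL18), adds a CBX protein, whose chromodomain binds the H3K27me3 mark made by PRC2, and a PHC protein, whose SAM domain polymerises. Variant PRC1 carries RYBP or YAF2 in place of CBX and can also be built on PCGF1, PCGF3, PCGF5 or PCGF6.

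The cells carried the RNAs of the labelled line, since all 9 erythroid K562 markers examined had an FPKM of at least 1, with HBZ the lowest and HBG2 the highest at 218.0 (interval 205.9 to 230.2). Of 9 markers of T cells, B cells and fibroblasts, CD3D at 6.29 (interval 3.85 to 8.73) and COL1A2 at 1.25 (0.275 to 2.22) passed that level, and the others lay below 1. The defining B cell markers MS4A1 and CD79A were at or near 0. Their part in the results was not tested.

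The levels of the 9 genes differed widely on the FPKM scale. BMI1 was the highest with 29.1 (interval 24.7 to 33.6). CBX7 was the lowest with 0.269 (0 to 0.903). The ratio of BMI1 to CBX7 was 108.2, but with an interval of 10.2 to 1144. Of the 9 genes, 7 had an FPKM of at least 1, a common working limit for an expressed gene, whereas 21.8% of all entries and 49.2% of the 19757 entries that the annotation lists as protein-coding reached it. CBX8 and CBX7 were the members below 1. Ranked among all entries, the members ran from percentile 66.5 for CBX7 to percentile 97.7 for BMI1, with a median of 83.5. Much of that rank came from entries at or near 0, because among protein-coding entries alone the median percentile of the members was 58.5 and CBX8 and CBX7 fell below the middle of the list at 47.5 and 39.8.

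Both genes of the catalytic RING position were detected as RNA, with RNF2 ahead. RNF2, which lies at chr1:185045364-185102608 on the plus strand of GRCh38, had an FPKM of 12.95 (interval 11.06 to 14.85). RING1, at chr6:33208495-33212722 on the plus strand within the major histocompatibility region, had 5.48 (4.53 to 6.43). The ratio of RNF2 to RING1 was 2.36 (1.88 to 2.96), and the bounds of the levels did not overlap. RNF2 thus made up 70.3% (65.5 to 75.0) of the summed FPKM of the position and RING1 29.7% (25.0 to 34.5).

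At the PCGF position, the RNA of BMI1, the subunit known for holding back the INK4A-ARF locus in stem and progenitor cells, exceeded that of both other members. BMI1, at chr10:22321211-22331484 on the plus strand, had the FPKM of 29.1 given above. PCGF1, at chr2:74505043-74508580 on the minus strand, had 4.08 (interval 2.25 to 5.91). PCGF2, at chr17:38733897-38749817 on the minus strand, had 1.66 (1.02 to 2.29). The bounds of BMI1 overlapped with neither. The ratio of BMI1 to PCGF2, the alternative PCGF subunit of canonical PRC1, was 17.6 (11.6 to 26.6), or 11.3 with a pseudocount of 1 added to both levels. The ratio of BMI1 to PCGF1, which nucleates the variant complex with KDM2B and BCOR, was 7.14 (4.45 to 11.5). PCGF1 exceeded PCGF2 by a ratio of 2.46 (1.36 to 4.45). Among the 3 members, BMI1 held 83.6% (78.5 to 88.6) of the summed FPKM, PCGF1 11.7% (6.83 to 16.6) and PCGF2 4.75% (2.89 to 6.61).

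The other PCGF genes were all detected and lay between BMI1 and PCGF2. PCGF3 had an FPKM of 8.40 (interval 6.88 to 9.92). PCGF5, which with PCGF3 nucleates the AUTS2-containing variant complexes, had 5.98 (4.90 to 7.06). PCGF6, the subunit of the variant complex with MGA and L3MBTL2, had 3.60 (2.72 to 4.47). PCGF1 thus stood below PCGF3 and PCGF5 and above PCGF6 by its estimate, and PCGF2 stood last. PCGF3 was higher than PCGF1 by 4.32 (1.94 to 6.70) on the FPKM scale. PCGF5 was above PCGF1 by 1.90, with an interval of -0.226 to 4.02 that included 0. PCGF1 was above PCGF6 by 0.484, and that interval, -1.54 to 2.51, included 0 as well. PCGF2 lay below each of the other 5, with every interval of the difference excluding 0. With all 6 PCGF genes in the sum, the share of BMI1 was 55.1% (50.3 to 59.9), that of PCGF1 7.72% (4.45 to 11.0) and that of PCGF2 3.13% (1.93 to 4.34).

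The value of BMI1 depends on how reads were divided with an overlapping gene. COMMD3-BMI1, a readthrough gene on the same strand that joins exons of the upstream COMMD3 to those of BMI1, shares 8332 bp of its span with BMI1 and had an FPKM of 5.79 (interval 3.83 to 7.75), beside 15.5 (12.4 to 18.5) for COMMD3. Of the 3441 windows of 100 bases in the canonical BMI1 transcript of GENCODE 44, 26.2% occur unchanged in a COMMD3-BMI1 transcript, so reads of those exons cannot be told apart by sequence. Adding the readthrough level to BMI1 gave BMI1 59.6% (55.1 to 64.0) of the 6 PCGF genes.

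The CBX position held the 2 members with the lowest levels. CBX2, at chr17:79778132-79787983 on the plus strand, had an FPKM of 2.32 (interval 1.63 to 3.02). CBX8, at chr17:79792132-79801683 on the minus strand, had 0.636 (0.183 to 1.09). CBX7, at chr22:39120167-39152674 on the minus strand and known as the main CBX subunit of pluripotent stem cells, had 0.269 (0 to 0.903), so its bounds reach 0 and its detection in this library is uncertain. CBX2 was higher than CBX8 by a ratio of 3.65 (1.69 to 7.91), which fell to 2.03 with a pseudocount of 1. CBX2 was also higher than CBX7, by 2.06 (1.11 to 3.00) on the FPKM scale, whereas their ratio of 8.63 had an interval of 0.805 to 92.6 and was 2.62 with that pseudocount. CBX8 and CBX7 could not be separated, with a difference of 0.367 (-0.412 to 1.15). A lower bound of 0 is common at such levels, as 83.8% of the 810 protein-coding entries within 20% of the FPKM of CBX7 had one.

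CBX6, another CBX gene of canonical PRC1 outside the 9, had an FPKM of 2.85 (interval 2.36 to 3.34). It was higher than CBX8 and CBX7, while its difference from CBX2, 0.527 (-0.323 to 1.38), did not exclude 0. Over the 3 CBX members alone, CBX2 made up 72.0% (53.6 to 90.3) of the summed FPKM, CBX8 19.7% (7.06 to 32.3) and CBX7 8.34% (0 to 26.4).

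Among the CBX genes reported here, those on the same chromosome were separated by the difference of their levels. CBX2 and CBX8 lie 4148 bp apart on chromosome 17, and CBX2 was higher by 1.69 (interval 0.858 to 2.52) on the FPKM scale. CBX6 and CBX7 are 247852 bp apart on chromosome 22, and CBX6 was higher by 2.58 (1.78 to 3.38). Such a separation is common, as 75.9% of all pairs of entries with an FPKM of at least 1 had one. CBX8 and CBX7 lie below that level.

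PHC1 was the lowest of the polyhomeotic genes. PHC1, at chr12:8913896-8941467 on the plus strand, had an FPKM of 2.23 (interval 0.858 to 3.60). PHC2 had 5.81 (4.24 to 7.38) and PHC3 had 9.82 (7.53 to 12.1). Both others exceeded PHC1, PHC2 by a ratio of 2.61 (1.33 to 5.10) and PHC3 by one of 4.41 (2.28 to 8.50). PHC1 made up 12.5% (5.49 to 19.5) of the 3 genes.

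The estimate of PHC1 was wide for its level. Its upper bound lay 61.5% above the estimate, against a median of 40.2% among the 851 protein-coding entries within 20% of its FPKM, and 87.4% of these were narrower. PHC1 has a processed pseudogene on the same chromosome, PHC1P1, which had an FPKM of 0.184 (interval 0.0612 to 0.306). Of the windows of 100 bases in the canonical PHC1 transcript, 43.7% occur unchanged in PHC1P1, and of those within the coding sequence 79.4%. The first such window that lies in a single exon is shown because it makes plain that a read from it fits both genes. It is in exon 3 of 15 at chr12:8919756-8919855 on the plus strand (GRCh38) and is coding sequence throughout.
PHC1 exon 3: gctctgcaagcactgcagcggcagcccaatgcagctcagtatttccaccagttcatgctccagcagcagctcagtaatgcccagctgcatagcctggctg
Alignments with a mapping quality under 20 were removed from the data, which bears on reads with more than 1 match. A further 19.1% of the PHC1 windows lie antisense to M6PR, a neighbour with an FPKM of 29.4 (25.3 to 33.6) whose span overlaps the 3' end of PHC1 by 1105 bp. The library kit keeps the strand, but the strand setting of the expression estimate was not given in the sources used here, and the part of either gene in the level of PHC1 was not tested.

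PCGF2 and CBX7 also have antisense neighbours. Of the PCGF2 windows, 63.3% lie antisense to GENCODE 44 transcripts of CISD3, which had an FPKM of 3.54 (interval 2.56 to 4.51) and shares 1148 bp of its span with PCGF2 in the annotation of the table. For CBX7, 27.9% of windows lie antisense to a long noncoding gene that had 0.145 (0.0330 to 0.257). RING1, RNF2, PCGF1, CBX2 and CBX8 had no window of 100 bases in transcripts of another gene on either strand. The estimate of PCGF1 was nonetheless wide, with an upper bound 44.8% above it and 93.1% of the 1168 protein-coding entries of like level narrower, whereas that of RING1 was narrow at 17.3%, with 17.5% of 1275 entries narrower.

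In the order of levels, the members at the top were separated from the next, and most neighbours below were not. BMI1 exceeded RNF2 by 16.2 (interval 11.3 to 21.0) on the FPKM scale and RNF2 exceeded RING1 by 7.47 (5.35 to 9.59). Below them, the neighbours RING1 and PCGF1, PCGF1 and CBX2, CBX2 and PHC1, and PHC1 and PCGF2 had intervals of the difference that included 0. For PCGF1 and CBX2, the interval of the ratio, 1.02 to 3.01, excluded 1. PCGF2 exceeded CBX8 by 1.02 (0.238 to 1.80). Of the 36 pairs of members, 29 had an interval of the difference that excluded 0. Among the 7 members with an FPKM of at least 1, 15 of 21 pairs (71.4%) did so, close to the 75.9% of all pairs of entries at that level. The 7 pairs that could not be separated by the difference all joined genes at most 2 places apart in the order. Conversely, CBX2, PHC1 and PCGF2 exceeded CBX7 by the difference, but the intervals of their ratios to CBX7 included 1.

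Summed over all genes of a position, the PCGF genes had 52.8 FPKM (interval 47.6 to 58.1), the RING genes 18.4 (16.3 to 20.5) and the PHC genes 17.9 (14.8 to 20.9). RYBP and YAF2, which take the place of CBX in variant PRC1, summed to 19.6 (16.5 to 22.7), of which YAF2 was 83.8% (80.9 to 86.7). The PCGF sum exceeded the RING sum by a ratio of 2.87 (2.46 to 3.34). The RING, PHC and RYBP/YAF2 sums could not be separated, with intervals of the 3 differences that all included 0. These are RNA levels, and the amounts of protein in the complexes were not measured.

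Most genes that work with the members passed the same level. Of 40 further genes, listed as paralogs of the positions, variant partners, SCM proteins, H2AK119 deubiquitinases with their cofactors, and PRC2 subunits that read H2AK119 ubiquitin, 37 (92.5%) had an FPKM of at least 1, beside 49.2% of protein-coding entries, and the median of the 40 was 7.49 against 2.32 for the 9 members. By list, the median was 5.89 for the 6 paralogs and 16.4 for the 23 variant partners. Among the 23 variant partners, 22 (95.7%) passed, from RYBP at 3.17 up to CBX3, a heterochromatin protein found with PCGF6, at 61.3 (interval 57.2 to 65.3). The 5 partners of PCGF1 had a median of 19.9 and ran from 5.92 to 59.7. For the 9 partners of PCGF6 the median was 22.0, with a range of 4.34 to 61.3. For the 7 partners of PCGF3 and PCGF5 it was 11.9, with a range of 0.600 to 55.5. AUTS2, a transcriptional activator of the PCGF3 and PCGF5 complexes, was the variant partner below 1 with 0.600 (0 to 1.59). SCML1 at 0.0466 (0 to 0.275) and ASXL3 at 0.0978 (0 to 0.857), an ASXL cofactor of the deubiquitinase BAP1, were the others, and all 3 had a lower bound of 0. USP16, an H2A deubiquitinase, was the highest of its list at 21.5 (19.9 to 23.2), and the readers JARID2 and AEBP2 had 6.26 (5.60 to 6.91) and 6.55 (5.19 to 7.92).

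Against the PRC2 core, the members were low. The 6 core genes ran from EZH1 at 8.48 (interval 6.84 to 10.1) to RBBP4 at 71.8 (66.9 to 76.8), with a median of 28.4. Of the 54 pairs of a core gene and a member, the core gene was higher in 50 and the member in 4. No interval of the difference included 0. Among all pairs of entries with an FPKM of at least 1, 75.9% had one that excluded 0. That share is of an unlike set, because the 54 pairs include those of CBX7 and CBX8, which lie below 1. The pairs share 6 core genes and 9 members, so they are not separate observations. The 4 pairs were BMI1 over EZH1, SUZ12 and EED, and RNF2 over EZH1.

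The stretches upstream of annotated starts of the members are shown because CpG-rich promoters are the sites where KDM2B anchors variant PRC1. They also let the highest and the lowest member be set side by side. RefSeq promoters (GRCh38.p14) were held for 7 of the 9 members, in 9 windows, and CBX2 and CBX8 were not matched. In the 250 bases before each start, the dinucleotide CG, which reads the same on both strands, was counted. Of 35116 windows of that length in the table, 93.9% hold at least 1 CG, and the median is 11. BMI1 and CBX7, at opposite ends of the order of levels, both had CG counts in the upper part of all windows. The 2 BMI1 windows held 35 (percentile 94.7) and 54 (percentile 99.97), and the CBX7 window held 41 (percentile 98.4). The BMI1 window with 54 lies inside the annotated span of the gene. The BMI1 window with fewer CG is printed because it lies before the more upstream of the 2 starts. The matched PCGF2 window, which lies inside its annotated span, held 1 (percentile 10.4). In the sequences, capitals mark each CG, and each is given 5' to 3' on the strand of its gene, at chr10:22320849-22321098 (plus) for BMI1, chr22:39152681-39152930 (minus) for CBX7 and chr17:38746629-38746878 (minus) for PCGF2.
BMI1: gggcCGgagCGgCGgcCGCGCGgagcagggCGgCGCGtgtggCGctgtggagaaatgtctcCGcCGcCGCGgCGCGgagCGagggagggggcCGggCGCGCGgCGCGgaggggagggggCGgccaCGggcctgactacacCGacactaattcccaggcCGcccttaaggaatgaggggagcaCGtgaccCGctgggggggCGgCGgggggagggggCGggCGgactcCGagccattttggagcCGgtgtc
CBX7: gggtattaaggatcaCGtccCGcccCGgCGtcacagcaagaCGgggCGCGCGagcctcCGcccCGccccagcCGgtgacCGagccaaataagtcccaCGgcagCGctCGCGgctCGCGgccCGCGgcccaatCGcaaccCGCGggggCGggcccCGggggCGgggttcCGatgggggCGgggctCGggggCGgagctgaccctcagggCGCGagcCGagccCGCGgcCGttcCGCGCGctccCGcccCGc
PCGF2: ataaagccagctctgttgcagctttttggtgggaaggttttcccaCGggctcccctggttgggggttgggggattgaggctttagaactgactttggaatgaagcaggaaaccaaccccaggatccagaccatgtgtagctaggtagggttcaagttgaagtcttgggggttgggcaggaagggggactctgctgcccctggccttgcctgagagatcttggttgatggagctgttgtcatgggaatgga
The 5 windows of RNF2, PCGF1, RING1 and PHC1 held 10 to 34 CG. That of PCGF1 and the PHC1 window with 23 CG lie inside the annotated spans, and those of RNF2 and RING1 overlap theirs in part. The 3 printed windows overlap no exon of GENCODE 44. No measure of DNA methylation or binding was analysed, and the counts are a description of the letters alone.

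None of the 900 listed EZH2 RIP-seq fragments lay inside the span of a member, and fragments of the study beyond these 900 were not analysed here. With 50% of the fragment length required inside the span, 0 of the 900 fragments fell in any of the 9 genes. Among all entries, 0.582% held at least 1 fragment, and among protein-coding entries with an FPKM of at least 1 it was 2.34%. Long genes held most of them, as 186 of the 228 expressed coding genes with a fragment (81.6%) were longer than RNF2, the longest member with 57245 bp. Within the range of the members' spans, 3538 to 57245 bp, 0.685% of 6135 expressed coding entries held a fragment. The list holds called fragments only and is not the full set of the study, so a count of 0 gives no upper limit on EZH2-bound RNA from these genes.

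The nearest listed fragment was 371067 bp away for BMI1 and 15217241 bp away for CBX7, with a median of 2000220 bp for the 9 genes. For expressed coding entries the median distance was 3300000 bp. The fragment nearest to BMI1, at chr10:22702551-22703008, had 1 read in the cytoplasmic, 32 in the nuclear, 3 in the nuclear polyA+ and 25 in the nuclear polyA- library. The fragment nearest to CBX2 and CBX8, at chr17:70102351-70115217 and 9662915 bp from CBX2, had 31, 814, 200 and 814 reads in the same order. The fragments nearest to the other members had 0 to 19 cytoplasmic and 7 to 251 nuclear reads.

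Of the 40 further PRC1 genes, SCMH1, a homolog of the fly Sex comb on midleg protein that associates with PHC, held a fragment, which is 2.50% of the list beside the 2.34% of expressed coding entries. It lies at chr1:41165688-41168504, overlaps no exon of GENCODE 44, and is inside the 214955 bp span of the gene, whose FPKM was 5.06 (interval 3.36 to 6.75). The fragment had 8 cytoplasmic and 179 nuclear reads, a ratio of 22.4 (exact interval 11.1 to 52.6), where the median ratio of the 433 fragments with at least 3 reads in both libraries was 16.6. It had 165 nuclear polyA- reads, a ratio of 1.39 (1.09 to 1.77) to its nuclear polyA+ reads, where the median of 748 fragments was 3.25. The direction of that ratio turned with the scaling. It was 0.758 (0.595 to 0.968) when each library was scaled to its reads on the fragments, 106051 in polyA- and 57985 in polyA+. It was 0.427 (0.335 to 0.545) when the median ratio of the fragments with at least 3 reads in both libraries was set to 1. The same scalings gave 1.68 (0.834 to 3.95) and 1.35 (0.671 to 3.18) for nuclear to cytoplasmic reads, with intervals that include 1. Both median ratios leave out fragments with fewer than 3 reads in either library, and the median fragment of the 900 had 2 cytoplasmic reads. The intervals cover counting error only. In the PRC2 core, EZH2 held 4 fragments and was 1 of 6 genes (16.7%) with any, beside the 2.34% of expressed coding entries. In order of position, the EZH2 fragments had 17, 18, 10 and 204 cytoplasmic reads and 17, 21, 13 and 103 nuclear reads. As raw counts, the nuclear reads of the EZH2 fragments were thus closer to their cytoplasmic reads than those of the SCMH1 fragment were. The cytoplasmic library had 7929 reads on all fragments and the nuclear library 105661. The EZH2 fragments had 38, 36, 18 and 305 nuclear polyA+ reads and 6, 6, 5 and 68 nuclear polyA- reads. The raw reads of the SCMH1 fragment went the other way. Whether the EZH2 fragments overlap exons is not given here.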

How the data were processed

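Per the methods, reads of the stranded libraries were trimmed with Trim Galore and mapped with STAR to GRCh38 with GENCODE 26, duplicates and alignments with a mapping quality under 20 were removed, and versions were not given in the sources used here. For the input RNA, the authors deposited Cuffdiff estimates in FPKM, each with its confidence bounds, and raw read counts on 900 EZH2 RIP-seq fragments from featureCounts for each fractionated library.

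The values were used as deposited, with no filter or pseudocount. The distance from the estimate to the upper bound, divided by the normal quantile of a 95% interval, gave the SE. The SEs were combined in quadrature for differences and sums, on the log scale for ratios and by the delta method for shares. Ratios of reads have exact Clopper-Pearson intervals. The interval functions were tested on simulated counts with smaller relative errors than those of CBX7, CBX8 and PHC1, and with no bound cut at 0. Upper bounds lay 71.2% above the estimate for CBX8 and 61.5% for PHC1. The test therefore does not cover the intervals that involve CBX7, CBX8, PHC1 or other genes with as wide an estimate. Gene types, exons and transcripts are those of GENCODE 44, which held 57511 of the 58293 entries. All members, paralogs of their positions and, from other lists, the highest, the lowest and those under an FPKM of 1 are named, with further genes where reads or fragments bear on a member. An item of the lists, and sums and shares that need it, are not reported here. Members and lists were chosen with earlier results of these data known. Python 3.11.15, numpy 2.4.6, pandas 2.3.3 and scipy 1.17.1 were used.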

Additional observations from a re-analysis of the deposited data

How the results depend on the processing

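No paired analysis was possible because each kind of RNA analysed had 1 library. Ranked among protein-coding entries the median percentile of the members moved from 83.5 to 58.5, and among entries with an FPKM above 0 to 71.6. An FPKM threshold of 5 left 3 of the 9 members. With all PCGF genes counted, the share of BMI1 moved from 83.6% to 55.1%, or 59.6% with COMMD3-BMI1 added. A pseudocount of 1 lowered the ratio of BMI1 to PCGF2 from 17.6 to 11.3, that of CBX2 to CBX8 from 3.65 to 2.03 and that of CBX2 to CBX7 from 8.63 to 2.62. These moves follow from what each alternative counts or adds. Of 36 member pairs, 25 had bounds that did not overlap, 32 differed by at least 1.5-fold, and 29 were separated when that distance to the upper bound was read as 2 SE. The count of fragments in member spans stayed at 0 with any shared base, within 10000 bp and with GENCODE 44 spans. The polyA- to polyA+ ratio of the SCMH1 fragment reversed from 1.39 to 0.758 with libraries scaled to their sums and to 0.427 with the median ratio set to 1. The readings as 2 SE, with COMMD3-BMI1 and with scaled SCMH1 reads were chosen after seeing the data. Shares over all CBX genes were not run, and scalings of reads in member fragments were not run since no fragment was found. With 1 library and unstated depth, levels under an FPKM of about 1 are poorly bounded.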
